A study of Mus musculus with 8 samples.

Results

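The genes described here are 32 mouse genes taken by name as genes of the extracellular matrix and of matrix adhesion, many of the kind that fibroblast feeder layers express. They were taken from the gene names in the m6A site lists of the siNC control libraries: names that start with Col, Adamts, Itga, Itgb, Mmp or Timp followed by a digit, together with Fn1, Postn, Fbn1, Loxl2 and Lox, and without the basement membrane collagens Col4a1 and Col4a2. They make up 32 of the 10609 genes named in any of the lists of that experiment, and 247 of the 85953 distinct sites. The rule uses names only, so it also took Itgb1bp1, which encodes a cytoplasmic protein that binds an integrin and is not an integrin. It likewise took genes that are not particular to fibroblasts, such as Fn1 and integrins, which pluripotent cells also make. The 3 collagen VI genes were set apart as 1 group because Col6a1 and Col6a2 were the markers given for feeder-type matrix.

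N6-methyladenosine (m6A) was measured by GLORI, in which unmethylated adenosine is chemically converted and read as guanosine while m6A is still read as adenosine. The level of a site is the number of A reads divided by the number of A+G reads. The first experiment compared cells labelled TBLC, grown in MYCP medium and given either siVirma, an siRNA against the m6A writer subunit Virma, or siNC, the control siRNA, with 2 libraries in each group. The second compared EPSC cells whose libraries are labelled sgGata6 or sgCtrl, in a dCas13b-FTO system that brings an m6A eraser to an RNA chosen by the guide; each group has 2 libraries, whose reads were pooled in the deposited table. No genotype, strain or age beyond these labels is given, and no label says whether feeder cells were present in the cultures or removed before the RNA was taken. Nothing in the labels says that the 2 libraries of a group came from separate cultures. The p-values of the first experiment therefore measure only the spread between libraries, which the tests partly share over all genes or sites. Those of the second, from pooled reads, measure counting error only.

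Collagens, fibronectin, fibrillin and periostin build the fibres and networks around mesenchymal cells. Collagen VI is a microfibril made of 3 different chains, and collagens I, III and V form the banded fibrils of connective tissue. Integrins are the paired receptors by which a cell holds on to these fibres, and metalloproteinases cut them while TIMP proteins inhibit the cutting. On mRNA, m6A is laid down by a writer complex that needs Virma, is found mostly near stop codons and in the last exons, and is known to shorten the life of many transcripts. Pluripotent cells and early embryonic cells make fibronectin, laminins, collagen IV and integrins themselves, whereas fibrillar collagens and collagen VI are abundant products of fibroblasts.

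Each site list of the first experiment summed to 2655963 to 4764955 A+G reads, with a median of 39 to 45 reads per site. The lists hold only called sites and start at 15 A+G reads, 5 A reads and a level of 0.1. Virma itself had a gene coverage of 24.0 and 22.8 in siVirma, against 40.3 and 38.2 in siNC, a 0.544-fold level (limma adjusted p = 2.27e-05). The lists named 19 of 20 pluripotency genes, 8 of 11 totipotency-like genes, 10 of 10 endoderm basement membrane genes and 5 of 9 trophoblast genes. Of 25 fibroblast genes that are not among the 32, 18 were named in at least 1 list and 7 (Acta2, Dcn, Ddr2, Fap, Fgf7, Hgf and Meox1) in none.

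The promoters of the collagen VI genes are shown first, because these 3 genes gained coverage together, and those of Col1a2 and Timp2 are shown beside them as a fibrillar collagen that also gained coverage and as the gene with the largest fall in coverage of the 18 tested. Each is the 250 bases before the first listed start in RefSeq on build GRCm38.p6, which differs from the mm39 build of the sites, so the coordinates of promoters and sites cannot be set against each other. The window of Col6a1 is chr10:76726045-76726294 on the minus strand, that of Col6a2 chr10:76623405-76623654 on the minus strand and that of Col6a3 chr1:90843972-90844221 on the minus strand. The window of Col1a2 is chr6:4505368-4505617 on the plus strand and that of Timp2 chr11:118355412-118355661 on the minus strand. Capitals mark the TATA box (letters TATAAA), the CCAAT box (its own letters) and the GC box (letters GGGCGG) on either strand.
Col6a1: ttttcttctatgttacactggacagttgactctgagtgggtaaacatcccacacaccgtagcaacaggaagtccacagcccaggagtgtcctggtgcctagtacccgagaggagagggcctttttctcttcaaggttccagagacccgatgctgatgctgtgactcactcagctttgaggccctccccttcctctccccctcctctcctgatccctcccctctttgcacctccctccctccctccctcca
Col6a2: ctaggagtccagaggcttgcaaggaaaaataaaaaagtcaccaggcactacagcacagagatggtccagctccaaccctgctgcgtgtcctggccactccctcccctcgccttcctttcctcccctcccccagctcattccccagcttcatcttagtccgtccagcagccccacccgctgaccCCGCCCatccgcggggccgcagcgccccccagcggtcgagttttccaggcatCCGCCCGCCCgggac
Col6a3: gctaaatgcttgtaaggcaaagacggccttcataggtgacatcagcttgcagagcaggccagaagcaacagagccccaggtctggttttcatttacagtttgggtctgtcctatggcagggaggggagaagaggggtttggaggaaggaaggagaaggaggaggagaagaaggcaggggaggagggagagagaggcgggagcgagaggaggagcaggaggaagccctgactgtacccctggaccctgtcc
Col1a2: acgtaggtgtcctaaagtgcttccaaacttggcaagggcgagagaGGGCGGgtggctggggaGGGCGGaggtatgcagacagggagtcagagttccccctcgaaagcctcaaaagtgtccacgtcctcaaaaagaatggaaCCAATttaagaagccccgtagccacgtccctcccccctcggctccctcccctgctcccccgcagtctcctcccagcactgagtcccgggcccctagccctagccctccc
Timp2: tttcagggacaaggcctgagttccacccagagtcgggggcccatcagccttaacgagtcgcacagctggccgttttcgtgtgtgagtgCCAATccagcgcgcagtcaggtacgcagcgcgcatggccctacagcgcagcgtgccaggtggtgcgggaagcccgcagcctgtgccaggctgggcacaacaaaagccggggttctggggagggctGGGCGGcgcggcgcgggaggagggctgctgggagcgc
The 3 collagen VI windows held no TATA box and no CCAAT box, and only that of Col6a2 held a GC box. Of 22 promoters found for the 32 genes, the TATA box was in 3, the CCAAT box in 4 and the GC box in 15. Over all 27025 promoters of the table the shares were 13.0% for the TATA box, 34.5% for the CCAAT box and 32.9% for the GC box. The AP-1 motif, searched as TGANTCA on both strands and not in capitals, was in 2 of the 22 promoters, Col6a1 and Mmp3, and in 6.87% of all promoters. The TEAD motif, searched as CATTCC in the same way, was in 3 of the 22, Col6a2, Col3a1 and Itgb1, and in 12.6% of all promoters. A letter match is not a binding site.

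Gene coverage, a value per gene that is deposited beside each listed site, was compared first. A gene has a value only in a library where at least 1 of its sites is listed, so 18 of the 32 genes could be tested and 14 could not; the 18 are not a random part of the 32. Among the 18, coverage was higher in siVirma for 12 and lower for 2, and 4 did not pass the test (limma on log2 coverage with each library centred on its median gene, Benjamini-Hochberg over 6787 genes, adjusted p under 0.05). Over all 6787 genes 13.3% were higher, 9.65% were lower and 22.9% passed in either direction. The median log2 change was 0.35 over the 18 genes and -0.01 over all genes. The groups did not overlap for 16 of the 18, against 65.6% of all genes. With only the groups centred, and not each library, 7 of the 18 were higher and 1 lower, against 136 and 57 of all genes. The median coverage of the 6787 genes was 46.4 and 40.1 in siVirma, against 39.3 and 37.6 in siNC, so the siVirma libraries also differed from each other as a whole. Leaving out any 1 library lowered the number of all genes called, most of all without siVirma replicate 1. The log2 changes of the collagen VI genes then lay between 0.91 (Col6a2 without siNC replicate 2) and 1.22 (Col6a1 without siVirma replicate 2). That of Timp2 lay between -0.63 (without siVirma replicate 1) and -0.53 (without siVirma replicate 2). In bulk RNA, more cells of a type and more RNA per cell cannot be told apart in these values.

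Collagen VI gained most. Col6a1, which encodes a short chain of the microfibril, had a deposited coverage of 90.3 and 71.4 in siVirma, against 33.1 in both siNC libraries. Col6a2, whose product joins that chain, had 78.5 and 66.3 in siVirma, against 35.8 and 31.6 in siNC. Col6a3, which encodes the long chain, had 63.4 and 53.9 in siVirma, against 23.9 and 22.7 in siNC. Both siVirma libraries lay above both siNC libraries for each chain, and by more than the siVirma libraries differed from each other. After centring, the log2 change was 1.15 ± 0.06 (SE) for Col6a1, 0.97 ± 0.06 for Col6a2 and 1.20 ± 0.05 for Col6a3, which is 2.21-, 1.96- and 2.29-fold (limma adjusted p = 6.13e-06, 1.47e-05 and 2.43e-06). Ranked by change among the 6787 genes, Col6a3 was number 3, Col6a1 number 5 and Col6a2 number 8. Col6a1 and Col6a2 lie near each other on chromosome 10, and Col6a3 lies on chromosome 1.

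**Figure D1:**
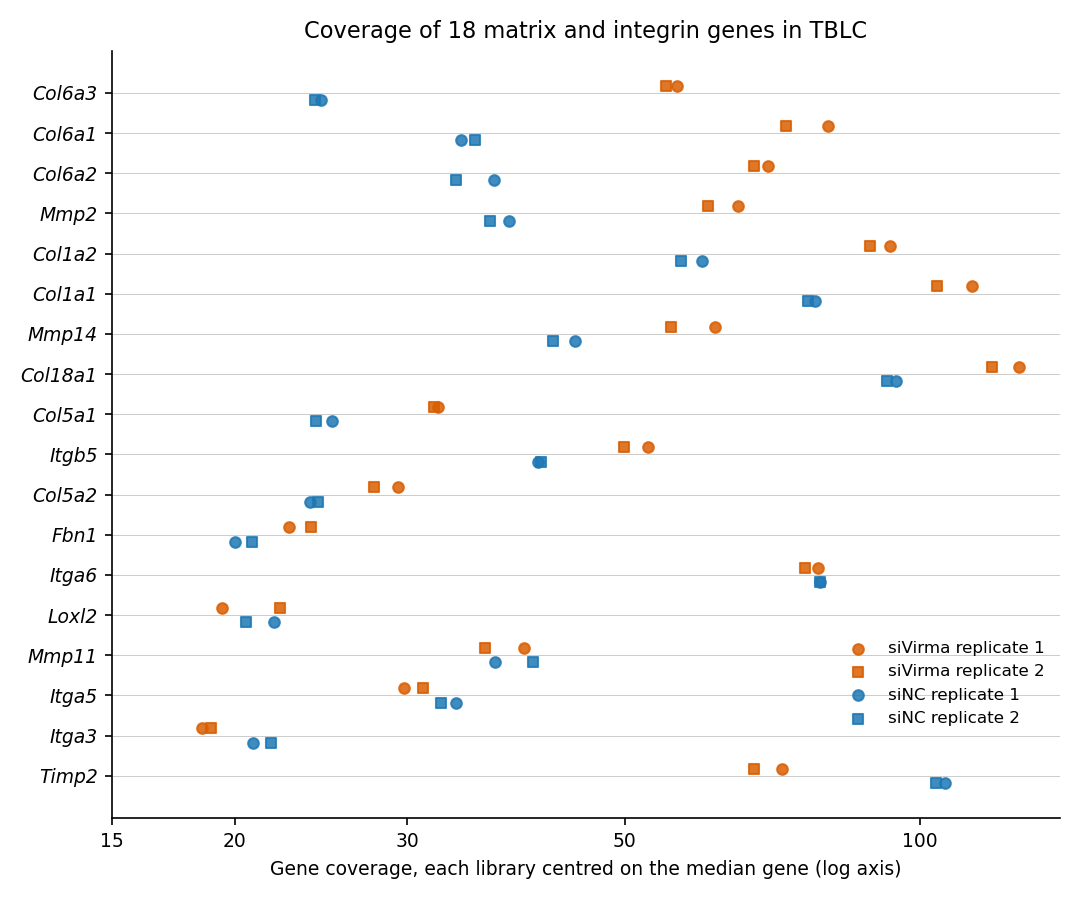
Gene coverage of the 18 genes with a value in all 4 TBLC libraries, on a log axis, with each library centred on its median gene; each point is 1 library, and genes run from the largest log2 change at the top to the lowest at the bottom. The collagen VI genes show the widest gap, with siVirma above siNC, and Timp2 the widest gap the other way.

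The reads over the m6A sites themselves gave a second view of the same libraries. At the tested sites of Col6a1 the A+G reads summed to 415 and 326 in siVirma, against 111 and 122 in siNC. Those of Col6a2 summed to 404 and 330 in siVirma, against 144 and 120 in siNC, and those of Col6a3 to 778 and 664 in siVirma, against 217 and 191 in siNC. When A+G reads over all sites listed in the 4 libraries took the place of the deposited coverage, the log2 change was 1.40 for Col6a1, 1.29 for Col6a2 and 1.59 for Col6a3 (limma adjusted p = 0.0427, 0.0455 and 0.0404). These 3 were then the only ones of the 32 to pass as higher, among 4 of all genes. None of the 32 passed as lower, and each of the other genes called on the deposited coverage kept its direction (log2 changes of -0.55 for Timp2 to 1.10 for Mmp2).

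All 4 fibrillar collagens with values were higher in siVirma, by less than collagen VI. Col1a2, a chain of collagen I, had a coverage of 104.6 and 87.1 in siVirma, against 58.3 and 53.6 in siNC, a log2 change of 0.64 ± 0.06 (adjusted p = 0.000122). Col1a1, its partner chain, had 127 and 102 in siVirma, against 76.0 and 72.2 in siNC, a change of 0.49 ± 0.06 (adjusted p = 0.000713). Col5a1 and Col5a2, chains of the collagen V that starts collagen I fibrils, changed by 0.38 ± 0.05 and 0.24 ± 0.06 (adjusted p = 0.00159 and 0.0131). The Col5a2 call was lost when siVirma replicate 1, siNC replicate 1 or siNC replicate 2 was left out (adjusted p = 0.0734, 0.0925 and 0.056). Col3a1, the collagen of loose connective tissue, had 38.1 and 33.0 in siVirma, against 18.8 in 1 siNC library and no value in the other, so it was not tested. Col18a1, a basement membrane collagen and the source of endostatin, had 142 and 116 in siVirma, against 91.9 and 86.9 in siNC, a change of 0.39 ± 0.06 (adjusted p = 0.00183). Col12a1, which sits on the surface of fibrils, had 46.7 in 1 siVirma library, against 31.4 and 31.2 in siNC.

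Coverage was higher in siVirma for the proteases Mmp2 and Mmp14 and lower for the inhibitor Timp2. Mmp2, gelatinase A, had a coverage of 73.2 and 59.5 in siVirma, against 37.1 and 34.3 in siNC, a log2 change of 0.76 ± 0.06 (adjusted p = 5.35e-05). Mmp14, the membrane-bound protease that activates Mmp2, had 69.4 and 54.5 in siVirma, against 43.3 and 39.6 in siNC, a change of 0.44 ± 0.06 (adjusted p = 0.00195). Timp2, which inhibits metalloproteinases and also takes part in the activation of Mmp2 by Mmp14, had 81.2 and 66.3 in siVirma, against 103 and 97.4 in siNC. Its log2 change was -0.58 ± 0.06, a 0.667-fold level (adjusted p = 0.000212), and the groups did not overlap. Mmp11, another member of the protease family, had 44.3 and 35.3 in siVirma, against 35.9 and 37.9 in siNC; its groups overlapped and it did not pass (adjusted p = 0.756). Timp3, an inhibitor that stays bound to the matrix, had 33.8 in 1 siVirma library, against 30.3 and 31.3 in siNC. Mmp17, a protease held at the cell surface, had 20.7 and 17.6 in siVirma, against 18.4 in 1 siNC library.

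Integrins showed no common direction. Itgb5, which pairs with the alpha-v chain, had a coverage of 59.2 and 48.9 in siVirma, against 39.7 and 38.6 in siNC, a log2 change of 0.33 ± 0.06 (adjusted p = 0.00366). Itga6, a laminin receptor chain, had 88.3 and 74.8 in siVirma, against 76.9 and 74.3 in siNC, and its change of -0.03 ± 0.05 did not pass (adjusted p = 0.733). Itga5, the fibronectin receptor chain, had 33.4 and 30.5 in siVirma, against 32.8 and 30.5 in siNC, a change of -0.12 ± 0.06 (adjusted p = 0.148). Itga3, another laminin receptor chain, had 20.8 and 18.5 in siVirma, against 20.3 and 20.4 in siNC, a change of -0.19 ± 0.05 (adjusted p = 0.0349). The call of Itga3 was lost when any single library was left out (adjusted p between 0.0591 and 0.328), and without centring its change was -0.05. Itgb1, the beta chain shared by most matrix receptors, had 166 in 1 siVirma library, against 170 and 166 in siNC.

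Among the glycoproteins and crosslinking enzymes, Fbn1, the fibrillin of elastic microfibrils, had 25.5 and 23.4 in siVirma, against 19.5 and 19.6 in siNC, a change of 0.19 ± 0.06 (adjusted p = 0.0365). This call too was lost without any single library (adjusted p between 0.0674 and 0.284). Loxl2, an enzyme that crosslinks collagen, had 21.8 in both siVirma libraries, against 21.3 and 19.3 in siNC, and did not pass (adjusted p = 0.791). Fn1, fibronectin, had 188 and 178 in siNC and no listed site, hence no coverage value, in either siVirma library. Postn and Mmp3 likewise had 1 listed site in each siNC library and none in siVirma, while Lox had a value in 1 library of each group. Itgb4, the partner of Itga6 in epithelial anchors, had 27.5 in 1 siVirma library, against 30.8 and 27.5 in siNC. Adamts1, Adamts9 and Itgb7 were in 1 siNC list only, and Itgb1bp1 in both siNC lists and neither siVirma list.

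The marker values that bear on fibroblast content were these. Of the 25 fibroblast genes outside the 32, 13 to 18 were listed in a library and 11 had values in all 4. Over these 11 the deposited coverage summed to 1058 and 863 in siVirma, against 903 and 862 in siNC. With each library centred on its median gene, the sums were 944 and 882 in siVirma, against 928 and 918 in siNC, and the groups overlapped. Sparc, which is also on the endoderm basement membrane list, weighs most in these sums. Its deposited coverage was 536 and 428 in siVirma, against 485 and 462 in siNC. Fstl1 came next, with 169 and 132 in siVirma, against 132 and 129 in siNC. The sums therefore say little about the less covered genes. Of the 11 genes, 4 were higher in siVirma (Twist2 1.23-fold, Prrx1 1.18-fold, Thy1 1.18-fold and Twist1 1.15-fold) and 2 were lower (Csf1 0.830-fold and Prrx2 0.873-fold), with a median log2 change of 0.06. Over all genes 13.3% were higher and 9.65% lower. Pdgfra, a receptor of mesenchymal cells, had 24.8 and 23.4 in siVirma, against 23.2 and 22.3 in siNC (adjusted p = 0.573), and Cav1, a coat protein of membrane pits, had 29.8 and 28.9 in siVirma, against 26.3 and 23.8 in siNC (adjusted p = 0.305). The part that fibroblast content has in the gain of the collagens was not tested.

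The related lists were read against the 13.3% of all genes with higher and the 9.65% with lower coverage in siVirma. Of 12 collagen processing genes with values, 2 were higher in siVirma, Fkbp10 (1.32-fold) and Loxl1 (1.14-fold), and 0 were lower; 7 genes of that list were in no list of sites. P4hb, a subunit of the enzyme that hydroxylates collagen, had 616 and 502 in siVirma, against 528 and 509 in siNC, which did not pass (adjusted p = 0.721). Of 15 integrin adhesion genes, Bcar1 was higher (1.16-fold) and Actn4 and Parvb were lower (0.885- and 0.772-fold). Of 16 TGF-beta and matricellular genes, Tnc, Vcan and Fbln2 were higher (1.55-, 1.27- and 1.24-fold), all matrix proteins, and 5 were lower, among them Ccn1, Thbs1, Ccn2 and Smad2 (0.646-, 0.738-, 0.817- and 0.867-fold). Of 9 endoderm basement membrane genes, Dag1 was higher (1.25-fold) and Lamb1 lower (0.882-fold). The counts higher and lower were 1 and 3 of 14 for pluripotency genes, 0 and 2 of 5 for totipotency-like genes, and 0 and 0 of 3 for trophoblast genes.

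The m6A level was compared next, on reads summed per gene over the sites that all 4 lists share and that had 20 or more reads in every library. All 14 genes of the 32 that had such sites fell in siVirma (edgeR quasi-likelihood test on A and G reads, Benjamini-Hochberg over 5642 genes, adjusted p under 0.05), as did 93.8% of all genes, and 0.177% of all genes rose. In all 14 the groups did not overlap, with siVirma lower, against 95.4% of all genes. The level left in siVirma had a median of 44.3% of the siNC level over the 14 genes and 44.9% over all genes, whose quartiles were 38.3% and 53.5%. A site that drops under a level of 0.1 leaves the list, so these shares cover only sites that kept a listed level and leave out those with the deepest loss. In the other lists the level fell for 9 of 9 collagen processing genes, 14 of 14 integrin adhesion genes, 12 of 13 TGF-beta and matricellular genes, 7 of 8 fibroblast genes, 7 of 8 endoderm basement membrane genes, 14 of 14 pluripotency genes, 5 of 5 totipotency-like genes and 3 of 3 trophoblast genes, and rose for 0.

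The genes differed among themselves in how much was left. Timp2 kept least, with levels of 0.144 and 0.109 in siVirma, against 0.523 and 0.482 in siNC, so that 25.2% was left (adjusted p = 4.75e-15). Mmp2 had 0.191 and 0.209 in siVirma, against 0.729 and 0.683 in siNC, with 28.3% left (adjusted p = 4.37e-11), from 1 site. Mmp14 had 0.175 and 0.264 in siVirma, against 0.684 and 0.700 in siNC, with 31.8% left (adjusted p = 7.52e-11). The value of Mmp14 rests on 2 tested sites and on the read minimum: its log2 odds change was -3.04, against -2.05 with sites of 10 or more reads and -2.08 without siNC replicate 1, and it passed in both cases. Itgb5 followed, with 0.202 and 0.187 in siVirma, against 0.579 and 0.541 in siNC, and 34.7% left (adjusted p = 4.16e-12).

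At the other end, Col1a1 had levels of 0.257 and 0.390 in siVirma, against 0.597 and 0.509 in siNC, with 58.5% left (adjusted p = 0.000114), from 1 site. Col6a3 had 0.285 and 0.264 in siVirma, against 0.484 and 0.508 in siNC, with 55.3% left (adjusted p = 2.77e-10). Col6a1 had 0.219 and 0.248 in siVirma, against 0.486 and 0.484 in siNC, with 48.2% left (adjusted p = 5.3e-09). The groups did not overlap for any of these 3 collagens, but the 2 siVirma values of Col1a1 lay further from each other than the higher of them lay from the lower siNC value. Itga5 had 0.370 and 0.294 in siVirma, against 0.720 and 0.670 in siNC, with 47.7% left (adjusted p = 2.18e-13). Col6a2 had 0.302 and 0.342 in siVirma, against 0.729 and 0.700 in siNC, with 45.1% left (adjusted p = 3.01e-14). The deposited conversion rate is, by its name, a measure of how fully A was converted. For Col6a2 it was 0.982 and 0.983 in siVirma, against 0.955 and 0.962 in siNC, where it was the lowest of the 32 genes. The median conversion rate of the lists was also higher in siVirma, at 0.988 in both libraries, against 0.983 in both siNC libraries. The part of conversion in the level was not tested. Col5a1, Itga6, Col18a1, Col5a2 and Col1a2 kept 45.2%, 45.0%, 43.5%, 39.6% and 35.9%, with 1 tested site each for Col5a2 and Col1a2.

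**Figure D2:**
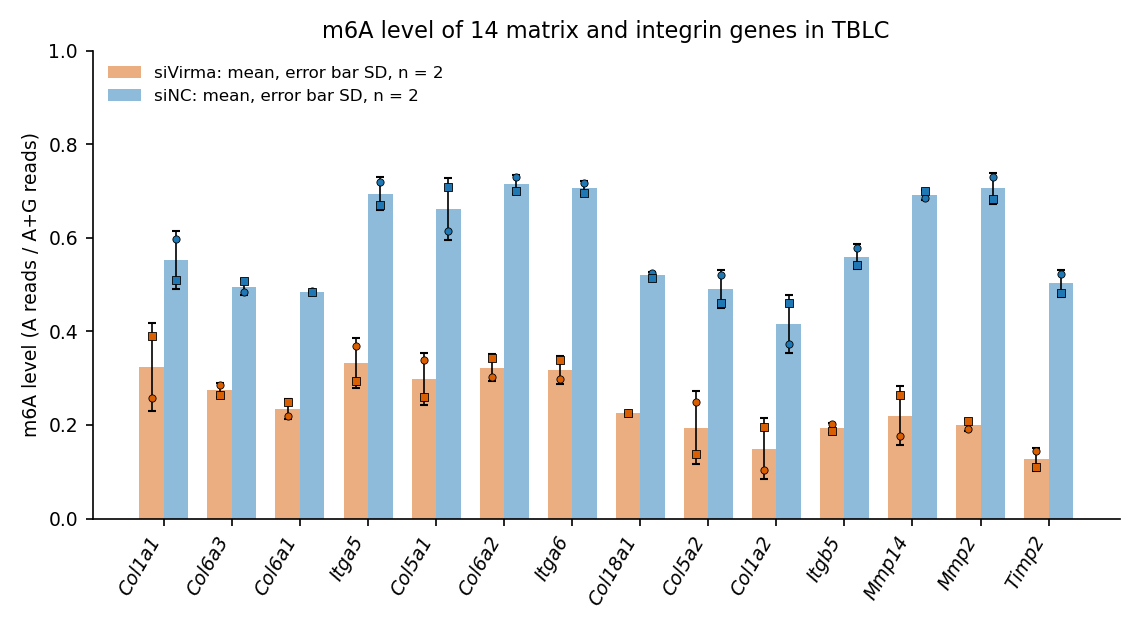
m6A level per gene (A reads divided by A+G reads) for the 14 genes with tested sites, siVirma to the left of siNC in each pair; bars are means, error bars the SD of 2 libraries, and points the libraries, ordered from the largest to the smallest share of the siNC level left. Every siVirma bar lies below its siNC bar, from Col1a1 with 58.5% left to Timp2 with 25.2%.

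At the level of single sites, of 46 tested sites in the 14 genes, 43 fell and 0 rose (edgeR, adjusted p under 0.05 over 20414 sites), against 91.6% and 0.147% of all sites. The levels lay lower in siVirma with no overlap at 45 of the 46, against 94.8% of all sites. The median share left was 44.6% over the 46 sites and 45.1% over all sites. Coordinates here are those of the deposited lists, on mm39.

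Collagen sites showed both strong and weak falls. In Col6a2 the site chr10:76432165 on the minus strand had levels of 0.266 and 0.262 in siVirma (158 and 126 reads), against 0.722 and 0.711 in siNC (72 and 45 reads), an adjusted p of 1.36e-10 by edgeR. In Col6a1 the site chr10:76545264 on the minus strand had 0.117 and 0.124 in siVirma (171 and 121 reads), against 0.293 and 0.346 in siNC (41 and 52 reads), with edgeR adjusted p = 7.52e-05. In Col6a3 the site chr1:90706738 on the minus strand had 0.138 and 0.141 in siVirma (152 and 135 reads), against 0.457 and 0.488 in siNC (35 and 41 reads), with edgeR adjusted p = 3.37e-07. At each of the 3 the reads in siVirma were more than in siNC, while the share of A reads was lower. Another Col6a3 site, chr1:90706915, was among the 3 that did not pass, with 0.417 and 0.449 in siVirma, against 0.481 and 0.583 in siNC (edgeR adjusted p = 0.224). Over the 7 tested Col6a3 sites the share left ran from 29.5% to 81.3%, and the site with 81.3% had 27 and 24 reads in siNC. Differences between sites of 1 gene were not tested.

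The fibrillar collagens had 1 tested site each for Col1a1 and Col1a2. In Col1a1 the site chr11:94842570 on the plus strand had 0.257 and 0.390 in siVirma, against 0.597 and 0.509 in siNC. In Col1a2 the site chr6:4540753 on the plus strand had 0.103 and 0.196 in siVirma, against 0.373 and 0.460 in siNC. Both fell (edgeR adjusted p = 0.000139 and 1.37e-05). In Col18a1 the site chr10:76888696 on the minus strand had 0.133 and 0.155 in siVirma, against 0.475 and 0.493 in siNC (edgeR adjusted p = 1.68e-14). A second Col18a1 site with over 50 reads in every library, chr10:76889165, had 0.121 and 0.120 in siVirma, against 0.358 and 0.270 in siNC (edgeR adjusted p = 1.91e-08). Its fall was the smallest among such sites of the 32 genes as a difference in level, -0.194. The siVirma levels of this site lay near 0.1, the lowest level listed. As a share, 38.3% of its siNC level was left, against a median of 44.6% over the 46 tested sites. The 1 tested site that was not lower in siVirma was also in Col18a1, at chr10:77002351, with 0.286 and 0.171 in siVirma, against 0.263 and 0.147 in siNC (edgeR adjusted p = 0.625).

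As a difference in level, the largest fall among sites with at least 50 reads was -0.525, in Itga6, at chr2:71687348 on the plus strand, with 0.300 and 0.302 in siVirma, against 0.824 and 0.828 in siNC (edgeR adjusted p = 7.42e-17). In Itgb5 the site chr16:33740243 on the plus strand had 0.153 and 0.164 in siVirma, against 0.563 and 0.472 in siNC (edgeR adjusted p = 5.13e-08). In Mmp2 the only tested site, chr8:93579625 on the plus strand, holds the same reads as the gene value. It had 0.191 and 0.209 in siVirma, against 0.729 and 0.683 in siNC (edgeR adjusted p = 1.29e-10). The groups did not overlap at any of these 3 sites. In Timp2 the site chr11:118194474 on the minus strand had 0.137 and 0.111 in siVirma (131 and 117 reads), against 0.523 and 0.472 in siNC (155 and 142 reads), with edgeR adjusted p = 9.19e-12.

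**Figure D3:**
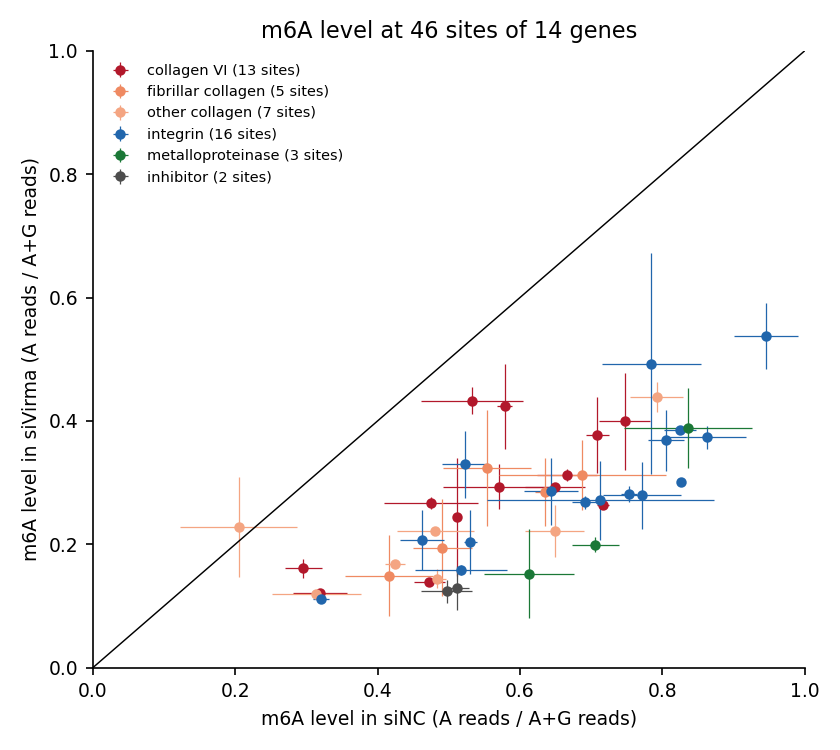
m6A level of the 46 tested sites in siVirma (vertical axis) against siNC (horizontal axis), as means of 2 libraries with bars of 1 SD, coloured by the role of the gene; the line marks equal levels. All sites but 1 lie under the line, and that one, in Col18a1, has a level of 0.229 in siVirma and 0.205 in siNC.

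Fewer sites of the 32 genes were listed after the knockdown. The lists held 110 and 108 of their sites in siVirma, against 193 and 183 in siNC, in 22 and 23 genes in siVirma, against 31 and 27 genes in siNC. Of 153 sites listed in both siNC libraries, 61 were also listed in both siVirma libraries, which is 39.9% (Wilson 95% interval 32.5% to 47.8%, counting error only), against 47.1% of all sites; 66 were in neither. Collagen VI kept 23 of 30 such sites, 76.7%, and the other 29 genes kept 38 of 123, 30.9%. Of the sites listed in both siVirma libraries, 9 of 83 were in no siNC list, which is 10.8%, against 5.93% of all sites, and 4 of the 9 were in collagen VI. Col6a3 had 24 and 25 listed sites in siVirma, against 16 and 21 in siNC, and was the clearest exception to the loss of listed sites. Its coverage was also higher in siVirma (63.4 and 53.9) than in siNC (23.9 and 22.7), and the lists start at 15 reads. At its 7 tested sites 29.5% to 81.3% of the siNC level was left. Over the gene 55.3% was left, against a median of 44.9% and an upper quartile of 53.5% over all genes. The part of reads and of level in these counts was not tested. Itga6 had 14 and 15 listed sites in siVirma, against 31 and 22 in siNC.

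A site can leave a list through a lower level or through fewer reads, and can stay in or enter one through more reads. The level and the reads in siNC therefore matter to these counts, but they do not cover every listing. The Itga6 site chr2:71687321 was in both siVirma lists (0.311 and 0.385, 244 and 182 reads) and in no siNC list. The coverage of Itga6 was 0.981-fold. Another Itga6 site, chr2:71686560, had 0.935 in siNC replicate 1 (107 reads) and was not listed in siNC replicate 2. What kept such sites off a list was not tested. Of sites with a level of at least 0.5 in both siNC libraries, 41 of 45 in these genes were still listed in siVirma, 91.1%, against 86.3% of all such sites. Of sites with at least 50 reads in both siNC libraries, 16 of 62 were, 25.8%, against 49.2% of all such sites. Fn1 shows such deep sites of low level: its 7 sites had 93 to 367 reads and levels between 0.109 and 0.375 in single siNC libraries, and none was listed in siVirma. The strongest Fn1 site by reads, chr1:71625189 on the minus strand, had 76 of 367 and 71 of 364 A reads in siNC. Itgb1 was alike, with 8 and 7 sites in siNC and 0 and 1 in siVirma, its remaining site chr8:129458749 having 0.103 in 1 siVirma library, against 0.393 and 0.357 in siNC.

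**Figure D4:**
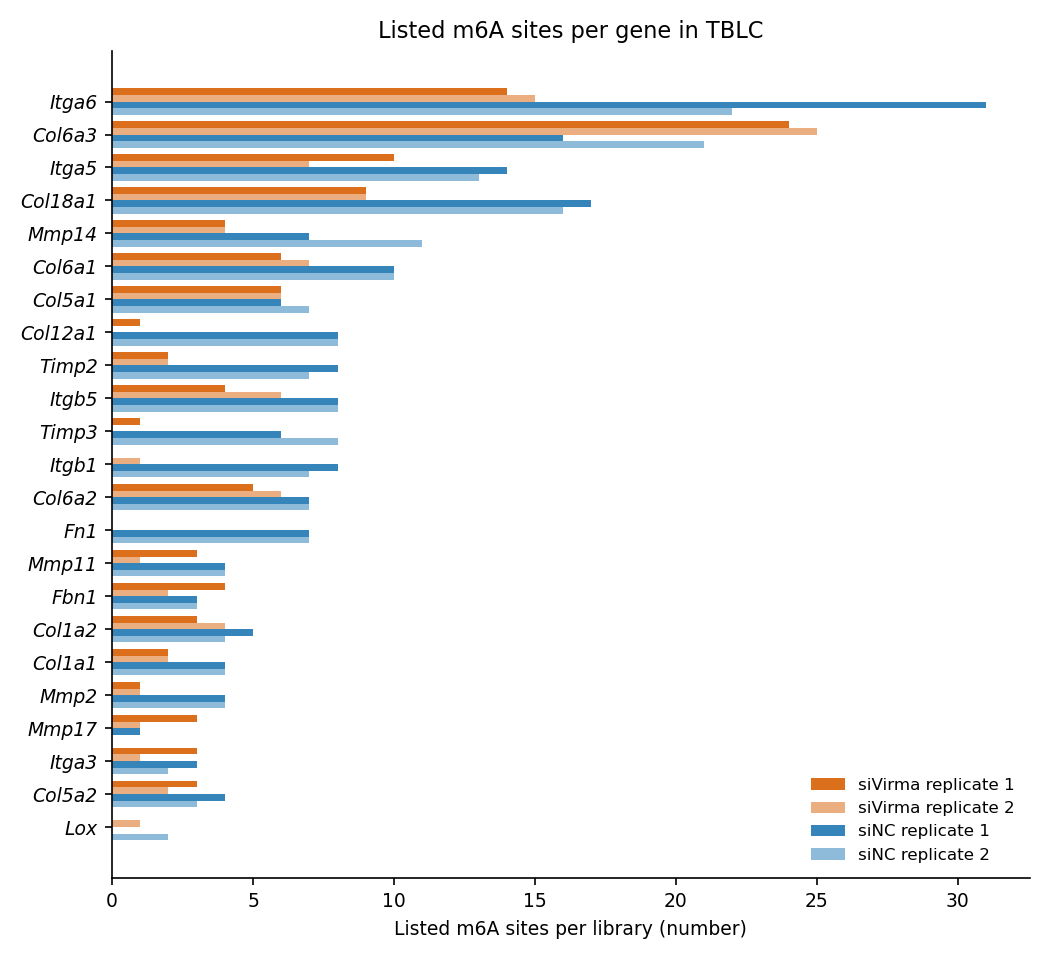
Number of m6A sites listed per library for the genes with at least 3 distinct sites, siVirma above siNC within each gene. Col6a3 has 24 and 25 sites in siVirma and 16 and 21 in siNC, while Fn1 has none in siVirma and 7 in each siNC library.

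The change in coverage was then set beside the m6A level left, gene by gene. Mmp2 had little left (28.3%, from 1 site) and higher coverage (1.69-fold), and Timp2 had even less left (25.2%) and lower coverage (0.667-fold). Col6a3, with 55.3% left, had the largest gain of the 14 (2.29-fold), and Itga6 and Col6a2, with 45.0% and 45.1% left, had 0.981-fold and 1.96-fold coverage. As a description across these 14 genes, which share the same libraries, Pearson's r between the log2 coverage change and the share left was 0.40 and Spearman's rho 0.35. Without the collagen VI genes r was 0.11 and rho -0.08 over 11 genes. Across all 5642 genes with both values r was -0.19 and rho -0.17.

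**Figure D5:**
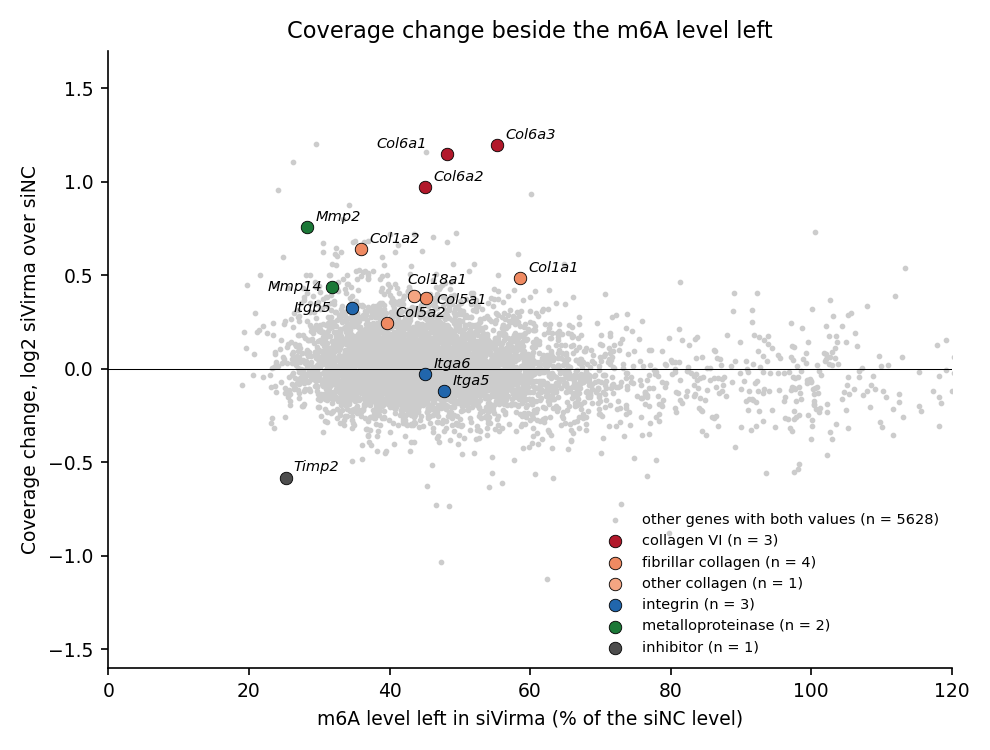
Log2 change in gene coverage, siVirma over siNC (vertical axis), against the m6A level left in siVirma as a percentage of the siNC level (horizontal axis); coloured points are the 14 genes by role, grey points 5628 other genes, of which 32 lie outside the axes. The 3 collagen VI genes stand at the top with 45.1% to 55.3% left, and Timp2 at the lower left with 25.2%.

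In EPSC the same positions were looked up by chromosome, position and strand, since the table names no genes. It held 57 rows at sites of the 32 genes, in 8 genes: 23 in Itga6, 11 in Col18a1, 7 each in Fn1 and Itgb1, 5 in Itga5, 2 in Mmp11 and 1 each in Loxl2 and Itgb1bp1. Of the 153 sites listed in both siNC libraries of TBLC, 49 were in the EPSC table, which is 32.0%, against 29.6% of all sites. None of the 30 such sites of collagen VI and none of the 16 of fibrillar collagens were among them. The absence was not particular to these collagens. Timp2 (6 sites), Timp3 (6), Col12a1 (6), Itgb5 (7), Mmp14 (7) and Mmp2 (4) also had none there. Of sites with at least 50 reads in both siNC libraries 61.3% were in the EPSC table for these genes and 55.1% for all sites. The counts were 0 of 6 for fibrillar collagens and 0 of 6 for Timp2. Collagen VI has 0 sites of that depth, so at this depth its absence from the EPSC table cannot be told apart from a lack of reads. The fibroblast list had 3 of 48 of its siNC sites in the EPSC table, 6.25%, against 61.3% for the pluripotency list. The other lists ran from 0 of 10 sites for trophoblast genes and 12.2% for TGF-beta and matricellular genes to 75.5% for collagen processing genes. These shares were not matched for depth.

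No difference in the m6A of these genes was detected between the EPSC groups. The summed level was 0.294 in sgGata6 (Wilson 95% interval 0.279 to 0.310, 3308 reads) and 0.300 in sgCtrl (0.283 to 0.318, 2656 reads). Of 46 sites with at least 20 reads in both, 0 passed Fisher's exact test after adjustment over 10185 sites, against 0.275% of all sites, and the lowest adjusted p of the 46 was 0.214. An unadjusted p under 0.05 was found at 3 of the 46 sites and at 1197 of all 10185. Because the table pools the libraries, the test compares pooled reads and not replicates.

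The EPSC sites with the most reads were in Fn1 and Itgb1. The Fn1 site chr1:71625189 had a level of 0.188 in sgGata6 (49 of 261 reads) and 0.182 in sgCtrl (43 of 236 reads). The Fn1 site chr1:71653041 had 0.161 in sgGata6 (18 of 112) and 0.173 in sgCtrl (17 of 98). In Itgb1 the site chr8:129458969 had 0.156 in sgGata6 (35 of 224) and 0.144 in sgCtrl (16 of 111). Their intervals overlapped widely. The Itgb1 site chr8:129449354 had 0.237 in sgGata6 (44 of 186) and 0.142 in sgCtrl (19 of 134), with a Fisher's exact p of 0.0456 before and 0.411 after adjustment. The sites chr8:129458917 and chr8:129458860 of Itgb1 had 0.433 and 0.115 in sgGata6, against 0.376 and 0.0854 in sgCtrl.

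Levels in sgCtrl were set beside those in siNC at the same positions, where single sites went both ways. At 40 sites with at least 20 reads the median was 0.264 in sgCtrl and 0.287 in siNC, and the median difference, sgCtrl minus siNC, was -0.00266, with 20 sites higher and 20 lower. Over all 7983 such sites the medians were 0.320 in sgCtrl and 0.373 in siNC, with a median difference of -0.0421. The tables were made separately, so no test was run between them.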

How the data were processed

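GLORI libraries were made from mRNA, per the labels' protocols, and the submitters' processing notes name mm39; no source used here names the aligner or site caller. Each TBLC list gives counts of A+G and of A reads per called site, as deposited by the authors. The deposited level is a fraction, A over A+G reads, and the deposited conversion rate is also a fraction. Gene coverage is a signal deposited by the authors per gene, whose computation no source used here describes. The deposited EPSC counts are pooled over the libraries of each group, and 2 total coverage columns were not used. Rows without a gene (6.14% to 7.7% of a list) stayed out of gene tests.

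Log2 coverage was tested with limma 3.58.1 for genes listed in all 4 libraries; centring each library on its median gene, rather than the groups alone, was settled after the spread between the siVirma libraries had been seen, and it removed a shift of 0.13 (log2, siVirma higher). A and G reads were tested with edgeR 4.0.16 (quasi-likelihood, a term per library) at sites with at least 20 reads in every library, in R 4.3.3. EPSC sites were tested with Fisher's exact test, planned as edgeR had single libraries been given. DESeq2 1.42.0 was an alternative. All p-values were adjusted by Benjamini-Hochberg over all features at 0.05, and the tests were tried on simulated data. Intervals are Wilson and cover counting error only. Summaries and plots used Python 3.11.15, pandas 2.3.3, scipy 1.17.1 and matplotlib 3.10.9. Promoters are from RefSeq on GRCm38.p6; no genome of mm39 was used, so positions within exons or UTRs are not stated.

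The genes and all lists (fibroblast, pluripotency, totipotency-like, endoderm basement membrane, trophoblast, collagen processing, integrin adhesion, TGF-beta and matricellular) were chosen with earlier results of these data known. Named in full were Col6a1, Col6a2, the 5 genes with the highest and the 3 with the lowest coverage change, the 4 with the most and the 4 with the least level left, the most-read site of the 10 genes with most reads, the largest and smallest falls in level (as a difference) at 50 or more reads, and the 6 EPSC sites with most reads. The listed sites without a pass, single sites of Fn1 and Itgb1, the Itga6 sites named for their listing, and the named genes of other lists beyond those with most sites were chosen after their values were seen. Replicate numbers are shared between groups, but nothing ties equal numbers to 1 culture. Some items of the lists are not reported here.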

Additional observations from a re-analysis of the deposited data

How the results depend on the processing

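Across the alternatives run, Col6a1, Col6a2 and Col6a3 stayed higher in siVirma past the threshold. Of the 32 genes 12 were higher in coverage; the number was 7 with groups centred and not libraries and 3 with A+G reads at shared sites in place of the coverage (both chosen after seeing the data), and between 10 and 11 without 1 library. Against 2 lower, 1 was lower with no centring, with groups centred, with at least 3 sites per list, with limma's trend and robust options, with a mean coverage of at least 30 and without any 1 library, and 0 with A+G reads. Over all genes, 902 higher became 136 with groups centred and 4 with A+G reads, and 275 to 861 without 1 library, lowest without siVirma replicate 1. The 655 lower became 30 with no centring, 57 with groups centred, 1 with A+G reads, and 197 to 527 without 1 library. With at least 3 sites per list neither Timp2 nor Itga3, the genes lower in the main fit, could be tested, because each had fewer listed sites in siVirma. The 1 gene lower in that setting was Itga5 (limma adjusted p = 0.0309), which did not pass in the main fit. Why the other counts moved was not tested.

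With at least 50 reads, fewer genes and sites remained to be tested: 6 of the genes fell, 3108 of all genes fell and 3 rose, 15 of the sites fell, and 8504 of all sites fell and 10 rose. With DESeq2, 1 of all genes and 4 of all sites rose; without 1 library 4 to 8 genes and 10 to 24 sites rose. The share of sites still listed, 39.9% in these genes and 47.1% of all sites, was 25.8% and 49.2% at 50 or more reads, 91.1% and 86.3% at a level of 0.5 or more, 56.9% and 66.9% when 1 siVirma list was enough, and 35.8% to 51.6% and 38.3% to 59.2% without 1 library. In EPSC 85 of all sites passed at 50 or more reads. The median difference between sgCtrl and siNC was -0.0208 at 10 or more reads and reversed to 0.00786 at 50 or more. Depth limits the collagen VI sites in siNC, of which 0 had 50 reads in both libraries.

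The replicate number was also fitted as a block. With the replicate block 12 of the genes were higher and 2 lower, with 1027 and 784 of all genes, and 14 of the gene levels and 43 of the site levels fell, with 5293 of all genes and 18692 of all sites; 10 genes and 30 sites rose. Same-numbered libraries had deviations correlated at 0.14 in coverage, -0.01 in gene level and 0.01 in site level, with only 2 pairs, so the numbers are not taken as a pairing.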
